A study of Mus musculus with 8 samples.

Results

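The levels of 9 genes of thyroid hormone action were compared between dorsal and ventral medial entorhinal cortex (MEC). They are *Hr* and *Klf9*, whose transcription responds to thyroid hormone, the receptor genes *Thra* and *Thrb*, the activating deiodinase *Dio2*, the cytosolic hormone-binding protein *Crym*, and the retinoid X receptor genes *Rxra*, *Rxrb* and *Rxrg*. They were matched by gene symbol, 9 of the 38553 genes in the deposited table, and all 9 were among the 13674 genes tested. The genes were chosen by their place in the pathway, with earlier results of these data known. *Hr* was also chosen by its measured dorsal and ventral FPKM in these same data, where it was higher dorsally. Its regional difference is therefore described below and not tested. The samples were from C57BL/6JolaHsd males, 8 weeks old, for which the labels give no treatment or genetic change, and the only contrast was position within MEC. Slices of 400 µm were cut sagittally through the right hemisphere of 13 mice, and a dorsal and a ventral region of MEC were taken from them. Tissue of 3 or 4 mice was pooled, giving 4 dorsal and 4 ventral libraries in which all cell types of the tissue were mixed. Errors and p-values therefore measure the variation among pools and not among single mice.

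The column headers of the expression table name another region than the authors' own regional means for 4 of the 8 libraries. The means over the columns headed D1, V1, D2 and V2 and over those headed D3, V3, D4 and V4 matched the authors' dorsal and ventral means within 0.1% for 14975 of 14989 genes, whereas grouping by the header letter matched 141. The first grouping was used, and values are listed in that order of columns, dorsal before ventral. No label settles this conflict, and the closing section gives the outcome with the header letters. Levels are FPKM, fragments relative to a gene's exon length and to the size of the library, as obtained by the authors with Cuffdiff. Differences were tested with limma on log2(FPKM + 1), ventral minus dorsal, with p-values adjusted by the Benjamini-Hochberg method over all tested genes. Genes called higher in dorsal or in ventral MEC are named D>V and V>D. Marker genes of neurons and of glia were present in every library, and 4 of 6 choroid plexus markers had means under 0.1 FPKM.

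Thyroid hormone reaches neurons and glia through membrane transporters. The prohormone T4 is converted to the active T3 by type 2 deiodinase, in brain mainly in astrocytes, and T3 binds nuclear receptors that sit on DNA as heterodimers with retinoid X receptors (RXRs). Without hormone the receptors recruit corepressors and hold target genes down, and with hormone they recruit coactivators. RXRs also pair with retinoic acid, vitamin D, LXR, PPAR and NR4A receptors, so that they are shared between several pathways. In the developing brain T3 governs myelination, neuronal migration and the maturation of interneurons.

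The receptors recognise the hexamer AGGTCA, which was searched for together with GGGTCA on both strands of the 250 bases before each annotated start. The windows come from RefSeq on GRCm38.p6, which held 10 windows for 6 of the 9 genes and none for *Hr*, *Thra* and *Crym*. The *Rxr* and *Thrb* windows with a match are shown, with *Klf9* as a hormone-responsive gene without one, each 5′ to 3′ on the + strand and with matches in capitals.
Rxrg, chr1:167598112-167598361: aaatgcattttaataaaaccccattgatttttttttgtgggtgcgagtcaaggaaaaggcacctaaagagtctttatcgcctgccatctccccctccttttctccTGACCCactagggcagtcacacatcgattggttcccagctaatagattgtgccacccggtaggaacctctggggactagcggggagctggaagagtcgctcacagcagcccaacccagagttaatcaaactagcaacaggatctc
Rxrg, chr1:167618015-167618264: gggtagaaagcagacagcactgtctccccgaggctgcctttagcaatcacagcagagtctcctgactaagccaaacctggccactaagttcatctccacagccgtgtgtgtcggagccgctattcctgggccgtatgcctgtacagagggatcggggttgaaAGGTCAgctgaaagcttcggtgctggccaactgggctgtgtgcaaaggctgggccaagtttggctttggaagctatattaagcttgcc
Rxra, chr2:27709042-27709291: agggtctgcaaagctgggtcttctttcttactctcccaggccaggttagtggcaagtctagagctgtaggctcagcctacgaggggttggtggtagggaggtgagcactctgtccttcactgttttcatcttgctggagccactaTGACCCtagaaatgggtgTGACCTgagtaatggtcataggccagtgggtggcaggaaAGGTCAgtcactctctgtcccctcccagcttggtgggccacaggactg
Thrb, chr14:17660710-17660959: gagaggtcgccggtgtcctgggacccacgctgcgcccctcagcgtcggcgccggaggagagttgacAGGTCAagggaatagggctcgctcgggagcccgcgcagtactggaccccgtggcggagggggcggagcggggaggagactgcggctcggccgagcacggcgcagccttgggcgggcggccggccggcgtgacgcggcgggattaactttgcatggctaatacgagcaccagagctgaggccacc
Klf9, chr19:23140976-23141225: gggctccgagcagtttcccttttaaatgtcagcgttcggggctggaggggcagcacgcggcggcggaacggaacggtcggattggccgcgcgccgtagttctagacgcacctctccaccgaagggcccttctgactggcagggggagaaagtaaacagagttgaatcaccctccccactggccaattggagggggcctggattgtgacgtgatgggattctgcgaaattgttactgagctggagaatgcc
AGGTCA or its complement stood in 3 of the 10 windows and in 14.0% of all 32851 windows of the table, and GGGTCA or its complement in 2 of 10 and in 11.6%. One of the *Rxrg* windows held the first hexamer and the other the second, and the *Rxra* window held both. A direct repeat of AGGTCA with 4 bases between the copies, the spacing typical of thyroid hormone receptors, was in 0 of the 10 and in 0.0152% of all windows. A match is a description of letters and not a binding site.

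The 9 genes covered more than 2 orders of magnitude of expression. *Thra* was the highest in both regions, at 74.4 ± 5.45 FPKM dorsally and 103 ± 10.9 ventrally (mean ± SD, n = 4), at percentile 96.1 of tested genes. In dorsal MEC it was followed by *Klf9* and *Crym*, whose ranges overlapped, then by *Thrb* and *Dio2*, by *Rxrb* and *Rxra*, which overlapped again, and by *Hr* and *Rxrg*. In ventral MEC *Crym* stood above *Klf9* without overlap, and *Rxrg* stood above *Hr*, the reverse of the dorsal order. The order of *Hr* and *Rxrg* is only described, since *Hr* was chosen for its dorsal excess. *Rxrg* reached the minimum level for testing only through its ventral libraries. *Thrb* varied least between libraries of a region, with a coefficient of variation of 3.54% dorsally and 2.81% ventrally, and *Rxrg* most, with 37.9% and 24.5%.

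**Figure D1:**
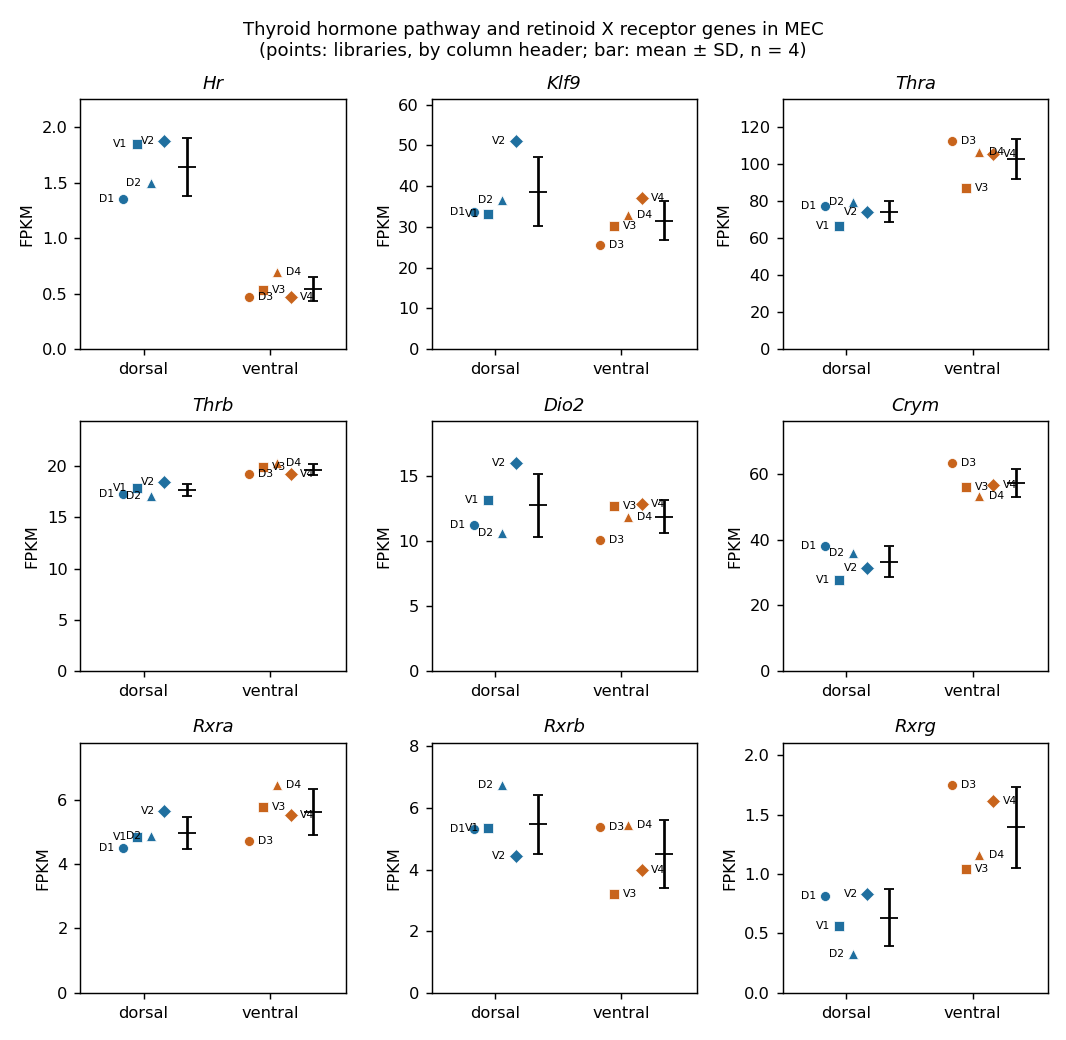
FPKM (linear axes from 0) of the 9 genes in each of the 4 dorsal (blue) and 4 ventral (orange) libraries, labelled by column header, with bars for mean ± SD. The dorsal and ventral points do not overlap for Hr, Thra, Thrb, Crym and Rxrg, and overlap for Klf9, Dio2, Rxra and Rxrb. Of all tested genes, 11.1% had no overlap, counting both directions. Hr was chosen for its dorsal excess, and Rxrg met the minimum level for testing only through its ventral libraries.

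Among the 8 genes besides *Hr*, *Thra* and *Crym* were V>D, 0 were D>V, also at an unadjusted limma p under 0.05, and 6 passed the test in neither direction. Of all tested genes, 1.45% were V>D and 2.15% D>V, 3.6% in either direction. An unadjusted limma p under 0.05, in either direction, was found for 2191 of the 13674 tested genes. *Rxrg* met the minimum level for testing only through its ventral libraries and is left out of the next counts. The ventral libraries all lay above the dorsal ones for *Thra*, *Thrb* and *Crym*, 3 of the other 7 genes, against 4.95% of all tested genes. For 0 of these 7 genes did all dorsal libraries lie above, against 6.17% of tested genes. In bulk tissue, fewer cells of a type and less RNA per cell cannot be told apart.

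**Figure D2:**
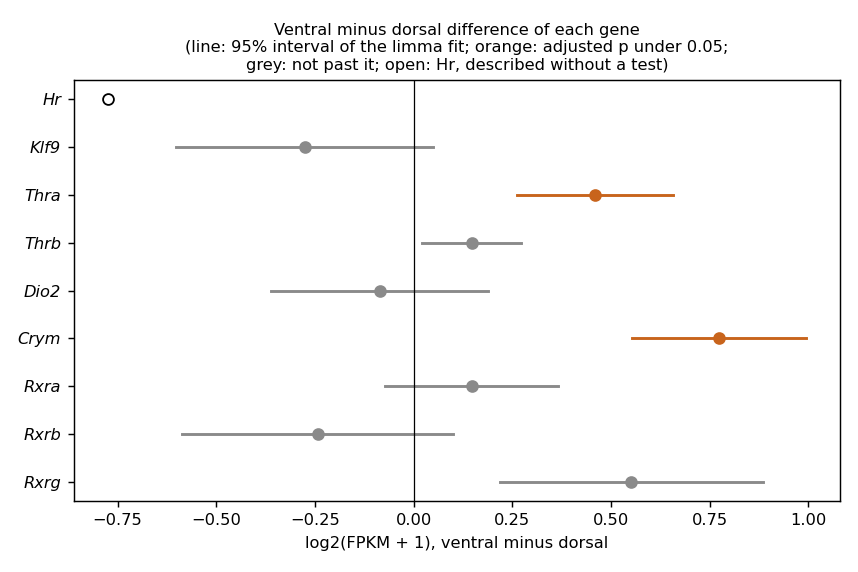
Difference in log2(FPKM + 1), ventral minus dorsal, for the 9 genes, with 95% intervals from limma for the 8 that were tested and none for Hr. The intervals of Crym (0.55 to 0.99) and Thra (0.26 to 0.66) lie well above 0, and those of Klf9, Dio2, Rxra and Rxrb include 0. Those of Thrb (0.02 to 0.27) and Rxrg (0.22 to 0.88) also lie above 0, but neither gene was called after adjustment. Rxrg met the minimum level for testing only through its ventral libraries.

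*Hr* (ENSMUSG00000022096, chr14:70552212-70573548, + strand) encodes hairless, a corepressor of nuclear receptors whose own gene is switched on by T3. Its level was 1.35, 1.85, 1.49 and 1.87 FPKM in the dorsal libraries and 0.469, 0.530, 0.698 and 0.472 FPKM in the ventral ones. Every dorsal library lay above every ventral one. The means were 1.64 ± 0.261 and 0.542 ± 0.107 FPKM, 3.03-fold higher dorsally, or -0.77 on the log2(FPKM + 1) scale. *Hr* was low in both regions, at percentile 1.80 of tested genes, and met the minimum mean of 1 FPKM only through its dorsal libraries. The 9 oligodendrocyte markers reported here were all D>V, against 2.15% of all tested genes. Their summed level was 675 to 901 FPKM dorsally and 364 to 483 ventrally. Among 6 markers of GABAergic neurons, *Pvalb* was D>V and *Sst* V>D (limma differences -1.13 and 1.02), and 4 were not called. Among 6 of glutamatergic neurons and 6 of neurons in general, *Slc17a6* and *Nefl* were D>V. The part of these cells in the differences of *Hr*, *Thra* and *Crym* was not tested.

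*Klf9* (ENSMUSG00000033863, chr19:23141226-23168134, + strand) encodes a Krüppel-like transcription factor and is induced directly by T3 and by glucocorticoids. It measured 33.6, 33.2, 36.6 and 51.0 FPKM dorsally and 25.6, 30.3, 33.0 and 37.0 FPKM ventrally. The groups overlapped, and the highest dorsal value came from the library headed V2. The means of 38.6 ± 8.43 and 31.5 ± 4.79 FPKM differed by -0.28 on the log2 scale, with an interval from -0.60 to 0.05 and a limma adjusted p of 0.403.

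The receptor gene *Thra* (ENSMUSG00000058756, chr11:98740638-98769006, + strand) also gives rise to a splice form that binds DNA but no hormone, and gene-level FPKM add both forms. It measured 77.2, 66.8, 79.3 and 74.2 FPKM dorsally and 112, 87.2, 107 and 105 FPKM ventrally. All ventral libraries lay above all dorsal ones, 1.38-fold by the means. The difference was 0.46 ± 0.09 on the log2 scale (SE, n = 4 and 4), with a limma adjusted p of 0.0191. The call was lost in 5 of the 8 fits that left out 1 library, with adjusted p-values of 0.0543 to 0.0659 without V1, V2, D3, D4 or V4, while the difference stayed between 0.41 and 0.54. *Thra* shares 263 exon bases, 5.70% of its exon length, with *Nr1d1* on the other strand, and since the strand of the libraries is not stated, fragments there cannot be assigned to either. *Nr1d1*, which encodes the clock repressor REV-ERBα, was at 40.9 ± 3.11 FPKM dorsally and 42.2 ± 3.66 ventrally (adjusted p 0.855).

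*Thrb* (ENSMUSG00000021779, chr14:17660261-18038090, + strand), the other receptor gene, showed a smaller difference of the same direction. Its values were 17.2, 17.8, 17.1 and 18.5 FPKM dorsally and 19.2, 19.9, 20.3 and 19.2 FPKM ventrally. The groups did not overlap, but the difference was only 1.11-fold, 0.15 on the log2 scale with an interval from 0.02 to 0.27. It did not pass, with a limma p of 0.0262 before and 0.227 after adjustment.

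*Crym* (ENSMUSG00000030905, chr7:120186380-120202111, - strand), which encodes μ-crystallin, an NADPH-dependent protein that binds T3 in the cytosol, had the clearest difference of the tested members. It measured 38.1, 27.8, 36.0 and 31.4 FPKM dorsally and 63.4, 56.2, 53.3 and 56.8 FPKM ventrally. The groups were far apart, with means of 33.3 ± 4.61 and 57.4 ± 4.25 FPKM. The 1.72-fold ventral excess corresponded to 0.77 ± 0.10 (SE) on the log2 scale, with a limma adjusted p of 0.00235. The call held without each library in turn, with adjusted p-values of 0.00298 to 0.0123.

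*Dio2* (ENSMUSG00000007682, chr12:90724552-90738438, - strand), the deiodinase that makes T3 from T4, measured 11.3, 13.2, 10.6 and 16.0 FPKM dorsally and 10.1, 12.7, 11.9 and 12.8 FPKM ventrally. The groups overlapped almost fully. The difference was -0.09 on the log2 scale, with an interval from -0.36 to 0.19 and a limma adjusted p of 0.803, and it turned to 0.02 without the dorsal library headed V2. Of 10 markers of astrocytes, the main site of this enzyme, 0 passed the limma test, against 3.6% of all tested genes. At an unadjusted limma p under 0.05 there were 4, of which 1 was higher dorsally and 3 ventrally. Of all 13674 tested genes, 2191 had an unadjusted limma p under 0.05. The summed level of the 10 markers was 918 to 993 FPKM dorsally and 859 to 938 ventrally. The highest of them was *Slc1a2*, with means of 682 FPKM dorsally and 635 ventrally. *Dio3*, the deiodinase that inactivates both hormones, had too few alignments for a test and was chosen for mention after its values were seen. It measured 0.0746, 0.0274, 0.0670 and 0.0365 FPKM dorsally and 0.766, 0.370, 0.367 and 0.564 FPKM ventrally.

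None of the *Rxr* genes was called by limma. *Rxra* (ENSMUSG00000015846, chr2:27676440-27762957, + strand) measured 4.50, 4.83, 4.86 and 5.65 FPKM dorsally and 4.71, 5.77, 6.46 and 5.52 FPKM ventrally, with overlapping groups. Its difference was 0.15 on the log2 scale (interval -0.07 to 0.37, limma adjusted p 0.534). *Rxrb* (ENSMUSG00000039656, chr17:34031812-34038399, + strand) also had overlapping groups, with 5.31, 5.36, 6.75 and 4.44 FPKM dorsally and 5.37, 3.20, 5.45 and 4.00 FPKM ventrally. Its difference was -0.24 (interval -0.59 to 0.10, limma adjusted p 0.506).

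*Rxrg* (ENSMUSG00000015843, chr1:167598384-167639623, + strand) is the RXR gene with the most restricted expression in brain, best known from striatum. It measured 0.815, 0.563, 0.324 and 0.832 FPKM dorsally and 1.75, 1.04, 1.16 and 1.61 FPKM ventrally. All ventral libraries lay above all dorsal ones, and the ventral mean of 1.39 ± 0.342 FPKM was 2.20-fold the dorsal mean of 0.633 ± 0.240. The difference was 0.55 ± 0.15 (SE) on the log2 scale, with a limma p of 0.00419 before and 0.0813 after adjustment, so that it was not called. *Rxrg* was at percentile 0.271 of tested genes and met the minimum of 1 FPKM only through its ventral libraries. With no minimum, the adjusted p was 0.0708, also not a call.

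The make-up of each receptor family was compared within libraries. Scaling between libraries plays no role in shares and ratios, but it does in summed FPKM. *Rxrg* made up 7.66%, 5.23%, 2.71% and 7.61% of the summed *Rxr* FPKM dorsally and 14.8%, 10.4%, 8.89% and 14.5% ventrally. The groups did not overlap, with means of 5.81 ± 2.35% and 12.1 ± 2.94%. These shares used no minimum level and rest on low values, with *Rxrg* at percentile 0.271 of tested genes. It met the 1 FPKM minimum for limma only through its ventral libraries. The exact two-sided permutation test gave p = 0.0286, the smallest that 4 against 4 libraries allow, and 0.0667 after adjustment over the 7 values compared. The share of *Rxrb* was 49.3 ± 6.53% dorsally and 38.7 ± 5.99% ventrally and that of *Rxra* 44.9 ± 4.84% and 49.1 ± 7.31% (exact permutation p = 0.0857 and 0.4). The sum of the 3 *Rxr* genes was 11.1 ± 0.595 FPKM dorsally and 11.5 ± 1.28 ventrally, with overlapping groups (exact permutation p = 0.543).

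The sum of *Thra* and *Thrb* was 84.6 to 96.4 FPKM dorsally and 107 to 132 FPKM ventrally, without overlap. *Thra* gave 80.8 ± 1.53% of it dorsally and 83.8 ± 1.74% ventrally, where the groups overlapped (exact permutation p = 0.0857). The *Rxr* sum was 0.120 ± 0.00644 times the thyroid hormone receptor sum dorsally and 0.0939 ± 0.00628 times ventrally, again without overlap. For this ratio and for the *Thra* and *Thrb* sum the exact permutation p was 0.0286, and 0.0667 adjusted. None of the 7 values passed after adjustment.

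**Figure D3:**
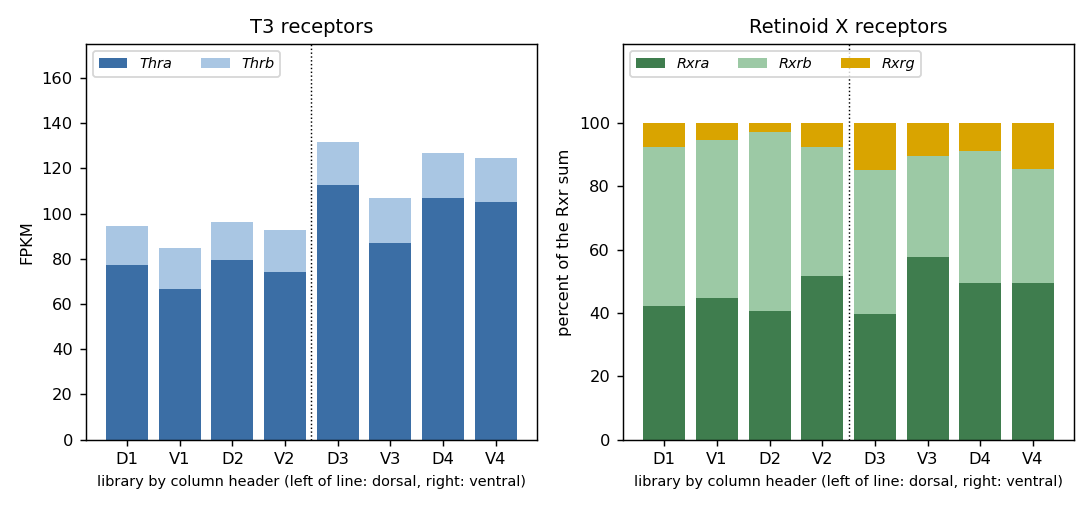
Receptor composition in each library, dorsal left and ventral right of the dotted line: the percent of the summed Rxr FPKM from Rxra, Rxrb and Rxrg, and the FPKM of Thra and Thrb stacked. The Rxrg share is 2.71 to 7.66% in dorsal and 8.89 to 14.8% in ventral libraries, and the Thra and Thrb sum is 84.6 to 96.4 and 107 to 132 FPKM.

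The members were set beside 81 other genes of hormone transport, receptor function, retinoid metabolism and T3 response, of which 61 were tested. There were 8 D>V, 4 V>D and 49 uncalled genes, where 2.15% of all tested genes were D>V and 1.45% V>D. The median difference was 0.02 on the log2 scale against -0.006 over all tested genes. The lists were written with earlier results of these data known, so their counts are a description. Of the 5 transporter genes reported here, 0 passed the limma test, against 3.6% of all tested genes, with differences from -0.22 to 0.22. An unadjusted limma p under 0.05 was found for 2191 of all 13674 tested genes and for 1 of the transporters. This was *Slc7a8*, an amino acid exchanger that also carries thyroid hormone and the highest of the list, at 25.4 FPKM dorsally and 29.9 ventrally (adjusted p 0.145).

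Transcripts of the circulating hormone carriers were at or near 0, with *Serpina7* at 0 in all 8 libraries and *Ttr* at 0.128 FPKM or less, and *Dio1* was also at 0. *Secisbp2*, needed for selenoprotein synthesis, was the 1 tested gene of that group and was not called (adjusted p 0.874). In the pituitary-thyroid axis, the TRH receptor gene *Trhr* was V>D with 0.778 ± 0.204 FPKM dorsally and 5.08 ± 0.622 ventrally (limma adjusted p 0.000156). Its dorsal mean was under the 1 FPKM minimum, and with no minimum the adjusted p was 0.000158. *Trhde*, which encodes the enzyme that degrades TRH, was not called (difference -0.17, adjusted p 0.445).

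The receptors act through corepressors, coactivators and, for RXRs, other nuclear receptors. Of 6 corepressor, 8 coactivator and 8 other RXR partner genes, 0 passed the limma test, against 3.6% of all tested genes, so that the count is near the background. At an unadjusted limma p under 0.05 there was 1, the corepressor complex gene *Tbl1xr1*, against 2191 of all 13674 tested genes. No coactivator or RXR partner had such a p. Corepressor differences lay between -0.23 and 0.10 on the log2 scale, coactivator differences between -0.13 and 0.09, and those of the RXR partners between -0.33 and 0.05. The highest of each were *Ncor1* at 147 FPKM dorsally and 148 ventrally, *Ncoa1* at 38.5 and 36.8 and *Nr4a2* at 181 and 182. None of the 11 tested relatives of *Klf9* was called by limma, against 3.6% of all tested genes, with differences from -0.29 to 0.29. Only 1 of them, *Klf5*, had an unadjusted limma p under 0.05, again against 2191 of all 13674 tested genes. *Tbl1xr1* and *Klf5* are named here after their values were seen.

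Genes of retinoid supply and breakdown set the amount of the RXR and retinoic acid receptor ligands. Of 7 tested, 1 was D>V and 2 were V>D, against 2.15% and 1.45% of all tested genes. *Aldh1a1*, a retinaldehyde dehydrogenase, was at 14.3, 20.5, 17.0 and 17.0 FPKM dorsally and at 6.70, 8.93, 9.13 and 8.92 FPKM ventrally (difference -0.95, limma adjusted p 0.00226). *Aldh1a2*, an enzyme of the same reaction, went the other way, with 4.58 ± 0.539 FPKM dorsally and 6.57 ± 0.181 ventrally (difference 0.45, adjusted p 0.0162, and 0.0580 without D3). *Rbp4*, the retinol carrier, was V>D with 6.86 ± 0.876 and 11.3 ± 1.51 FPKM (difference 0.64, adjusted p 0.00977). *Aldh1a2* is also expressed in the meninges, and 2 of the 5 tested leptomeningeal markers were V>D, with summed levels of 66.8 to 72.3 FPKM dorsally and 108 to 122 ventrally. Their part in the *Aldh1a2* and *Rbp4* differences was not tested.

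Of 13 tested brain genes known to respond to T3, 7 were D>V, 1 was V>D and 5 were not called, with a median difference of -0.42. Of all tested genes, 2.15% were D>V and 1.45% V>D, with a median difference of -0.006. The list was written with earlier results of these data known, so its counts are a description. Its D>V genes include the myelin genes *Mbp* and *Mag*, with differences of -0.86 and -0.87. Both belong to the oligodendrocyte markers, of which 9 of 9 were D>V, and the part of those cells in the differences was not tested. The neurofilament genes *Nefh*, *Nefm* and *Nefl* differed by -0.72, -0.90 and -0.42, of which *Nefm* lost the call in 4 and *Nefl* in 6 of the 8 fits without 1 library, with adjusted p-values up to 0.0770 and 0.122. The potassium channel gene *Kcnj10*, expressed in glia, differed by -0.67 (limma adjusted p 0.000942). *Rasd2*, a small GTPase of striatal neurons, differed by -0.51 with an adjusted p of 0.0469, which rose to as much as 0.138 when 1 library was left out. *Ntf3*, which encodes neurotrophin-3, was the V>D gene, with 0.603 ± 0.176 FPKM dorsally and 2.25 ± 0.145 ventrally (difference 1.02, limma adjusted p 0.00107). It met the 1 FPKM minimum only through its ventral libraries, and with no minimum the adjusted p was 0.000819.

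**Figure D4:**
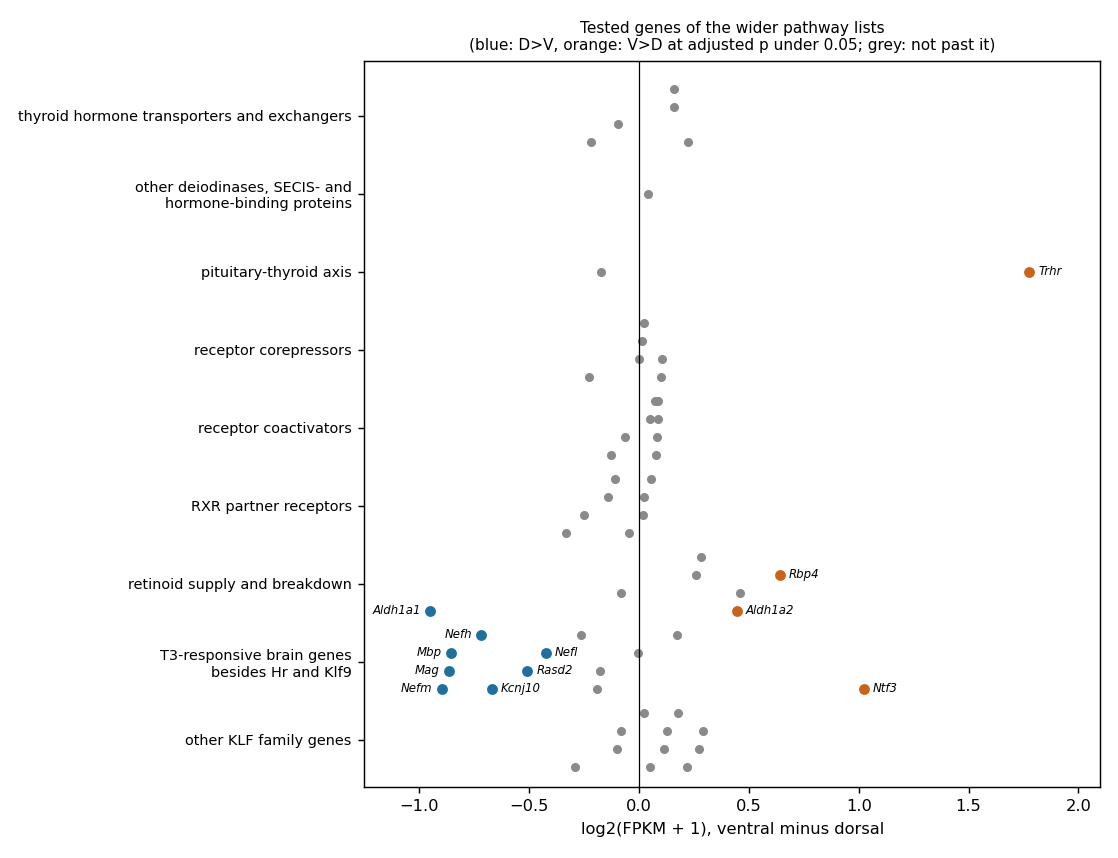
Difference in log2(FPKM + 1), ventral minus dorsal, of each tested gene of the 9 wider lists, 1 point per gene spread vertically within its list. Called genes are named, 8 D>V (blue) and 4 V>D (orange) of 61, against 2.15% and 1.45% of all tested genes. Transporters, corepressors, coactivators, RXR partners and other KLF genes show none.

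The genes whose levels followed the members most closely over the 8 libraries are given by Pearson's r of log2(FPKM + 1), as a description over libraries that share the regional contrast and their scaling. For *Hr* they were *Kcna1* (r = 0.989), *Fbxo32* and *Pfkfb3*, and for *Klf9* *Zdhhc24* (0.986) and *Med14*. *Thra* was nearest to *Dpysl3* (0.990), *Kcnip2* and *Rab3b*, and *Thrb* to *Armcx4* (0.980), *Gsta4* and *Ptprz1*. *Crym* was nearest to *Tac1* (0.992), *Glis2* and *Atp2b4*, and *Dio2* to *Reps1* (0.943), *Ovgp1* and *Gm12750*. For *Rxra* they were *Srrm2* (0.985), *Psmd5* and *Zfp341*, for *Rxrb* *Hspbp1* (0.977), *Tmem234* and *Sept5*, and for *Rxrg* *Dusp18* (0.976), *Abhd17c* and *Gm14204*. No member was among the nearest 3 of another member.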

How the data were processed

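Gene expression was measured by RNA-Seq in 4 dorsal and 4 ventral MEC libraries. RNA integrity numbers were 7.1 to 8.5 and 120 ng of RNA was amplified per sample. The submitters' processing notes name CASAVA 1.8, TopHat2 2.0.8 and Cuffdiff. The authors aligned to GRCm38 with Ensembl release 73, and the deposited FPKM values are gene-level values that Cuffdiff scaled between libraries. The authors' comparison table also holds fold changes, p-values and q-values, which were not used. From it came the alignment status and the regional means that place each column in a region. A long table of fragment counts names its entries by condition and replicate number, and 4 columns in it with per-sample values were left out. Depth is therefore not given, and the precision rests on the number of libraries.

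Genes with enough alignments (14989) and a mean of at least 1 FPKM over the 8 libraries were tested, 13674 in all, by limma (version 3.58.1, R 4.3.3), fitted with a mean-variance trend to log2(FPKM + 1). Calls were made at an adjusted p under 0.05. Differences on this scale understate those of low genes. Receptor shares and sums were compared by exact permutation over libraries. Both this test and limma treated the libraries as unpaired, although both regions came from the same pools. The fit was tested on simulated data. The members and the gene lists were chosen with earlier results of these data known, and *Hr* for its dorsal excess. Named are the 9 members, called genes and the highest gene of each list, the 3 genes nearest each member, and genes that overlap a member. Some genes that this rule or the lists take are not reported here and were left out of the list counts. Marker lists covered neurons, glia and vascular, leptomeningeal and choroid plexus cells. Positions are those of GENCODE M21 on GRCm38. Alternatives covered the added constant, the filters, scaling, the variance model, sample weights, the libraries used and the header regions.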

Additional observations from a re-analysis of the deposited data

Results flagged for a closer look

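Of 56 groups of 4 libraries examined, 1 had a library apart from the rest. In ventral MEC the retinaldehyde dehydrogenase gene *Aldh1a1* was at 6.70 FPKM in the library headed D3 and at 8.92 to 9.13 FPKM in the other ventral libraries, a gap of 0.915 of the group's range, above Dixon's limit for 4 values at the 95% level. Chance alone flags about 1 in 20 groups.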

How the results depend on the processing

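No paired analysis was possible because neither the labels nor the headers tie a library to its pool of mice, although both regions were taken from the same pools. With regions as the header letters name them, all genes gave 1 D>V and 0 V>D call, the members 0 V>D and the wider lists 0 in either direction. The differences then changed sign for *Hr* (0.084), *Klf9* (0.21), *Thra* (-0.17), *Dio2* (0.29), *Crym* (-0.18), *Trhr* (-0.20), *Rbp4* (-0.13), *Aldh1a1* (0.21), *Rasd2* (0.13), *Nefh* (0.14), *Nefm* (0.31), *Nefl* (0.12) and *Mbp* (0.10). The *Thra* share differed by -2.12 percentage points, the *Thra* and *Thrb* sum by -10.1 FPKM and the *Rxr* sum by -1.16 FPKM. With the 4 libraries on which header and mean agree, 2 per region, no gene was called, with 0 D>V and 0 V>D among all genes, members and lists. The differences were then -0.69 for *Hr*, 0.29 for *Thra*, 0.60 for *Crym*, 0.58 for *Rxrg* and, reversed, 0.21 for *Dio2*. A minimum mean of 5 FPKM left 2 V>D calls in the wider lists because fewer genes were tested.

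Leaving out 1 library at a time gave 163 to 342 D>V and 90 to 191 V>D genes, 1 to 2 V>D members, and 5 to 8 D>V and 3 to 4 V>D genes in the lists, with 5 D>V without V1, V2, D3 or V4. *Dio2* ranged from -0.16 to 0.022, reversed without the library headed V2, and the *Rxr* sum ranged from -0.0723 to 0.948 FPKM. With 3 against 4 libraries the permutation test cannot go below 0.0571. Rescaling to one total FPKM gave 205 D>V and 167 V>D genes and sample weights 370 and 259. With a constant of 0.1 or 0.01 before the logarithm, *Hr* differed by -1.44 or -1.59. Of 18 alternatives, 17 left *Rxrg* uncalled, and with sample weights it had a limma adjusted p of 0.0428. Because *Rxrg* met the FPKM minimum only through ventral libraries, this single call is a description and no support for a ventral excess.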
